A study of Mus musculus with 7 samples.

Results

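The 5 genes described here are S100a8 and S100a9, whose products pair to form calprotectin, the chemokine receptor gene Cxcr2, the granulocyte colony-stimulating factor receptor gene Csf3r, and Retnlg, which encodes resistin-like gamma. They were chosen by name as neutrophil-associated genes out of 27179 genes in the count table, with earlier results of these data known, and all 5 were among the 14436 genes tested. The RNA came from alveolar macrophages, phagocytes that live in the lung airspaces, which were isolated by flow cytometry after mice had been rebuilt with donor marrow. Every recipient was a lethally irradiated C57BL/6-Ly5.1 mouse that received 10% wild type Ly5.1 competitor marrow together with 90% Ly5.2 test marrow. The test marrow was wild type in 4 libraries and Suz12 conditional knockout (Suz12 cKO) in 3 libraries, each a biological replicate per the design text. The Cre driver, the deleted exons, the age of the mice and whether competitor-derived cells were removed in the sort were not stated in the labels or design text. RNA from a bulk sort cannot tell apart fewer cells of a type and less RNA per cell.

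Calprotectin is a calcium- and zinc-binding protein that makes up a large part of neutrophil cytosol and is also found in monocytes. Released from cells, it binds zinc and manganese that microbes need and acts on innate receptors such as Toll-like receptor 4. CXCR2 draws neutrophils toward chemokines such as CXCL1 and CXCL2, CSF3R carries the signal by which granulocyte colony-stimulating factor drives neutrophil production, and resistin-like gamma is a small secreted protein made by mouse neutrophils and marrow. Resident alveolar macrophages are a different lineage state, with high CD11c (Itgax) and Siglec-F. SUZ12 is a core subunit of polycomb repressive complex 2, which silences genes through methylation of histone H3.

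S100a8 and S100a9 lie on chromosome 3 in GRCm38, at 90669071 to 90670034 on the plus strand and at 90692630 to 90695721 on the minus strand, 22.6 kb apart. Cxcr2 lies on chromosome 1 at 74153994 to 74161246 on the plus strand, and the related receptor gene Cxcr1 is its neighbour, 30.5 kb further along. Because the results below turn on S100a8 beside S100a9 and on Cxcr2 beside Cxcr1, the 250 bases before the annotated start of each are shown. They are RefSeq sequences of GRCm38.p6, written 5′ to 3′ on the strand of the gene. Capitals mark matches on either strand to TATAAA, to the C/EBP-type pattern TTNNGNAA and to the PU.1-type core GAGGAA.
S100a8, chr3:90668821-90669070: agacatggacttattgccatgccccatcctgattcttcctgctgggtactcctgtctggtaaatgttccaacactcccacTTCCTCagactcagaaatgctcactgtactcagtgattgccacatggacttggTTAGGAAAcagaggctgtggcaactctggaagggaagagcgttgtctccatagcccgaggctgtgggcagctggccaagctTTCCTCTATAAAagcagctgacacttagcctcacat
S100a9, chr3:90695722-90695971: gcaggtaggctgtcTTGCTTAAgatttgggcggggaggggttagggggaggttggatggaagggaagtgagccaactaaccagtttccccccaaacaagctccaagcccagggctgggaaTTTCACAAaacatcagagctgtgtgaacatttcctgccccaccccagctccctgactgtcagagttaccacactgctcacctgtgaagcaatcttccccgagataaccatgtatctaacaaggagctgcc
Cxcr2, chr1:74153744-74153993: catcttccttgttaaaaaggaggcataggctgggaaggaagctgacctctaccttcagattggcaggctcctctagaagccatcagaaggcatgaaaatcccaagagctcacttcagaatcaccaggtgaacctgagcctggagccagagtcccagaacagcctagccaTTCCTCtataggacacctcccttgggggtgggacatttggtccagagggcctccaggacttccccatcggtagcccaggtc
Cxcr1, chr1:74194632-74194881: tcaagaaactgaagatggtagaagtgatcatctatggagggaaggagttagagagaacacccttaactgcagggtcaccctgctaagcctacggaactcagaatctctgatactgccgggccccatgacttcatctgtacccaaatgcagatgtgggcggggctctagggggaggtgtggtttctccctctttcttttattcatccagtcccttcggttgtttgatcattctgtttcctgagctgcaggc

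In the S100a8 window a TATAAA began 30 bases before the start and directly followed a GAGGAA match, with which it shares no base. A second GAGGAA match began at 170 bases and a TTNNGNAA match at 117 bases. The S100a9 window held TTNNGNAA matches at 236 and 130 bases, and a TATAAA began at base 1 past its annotated start, outside the stretch shown. Cxcr2 held 1 GAGGAA match, at 81 bases, and Cxcr1 held none of the 3 patterns. Of 32851 RefSeq promoter windows of the same length, 12.4% held TATAAA, 36.8% held TTNNGNAA and 23.3% held GAGGAA. CpG dinucleotides numbered 2 in S100a8, 2 in S100a9, 1 in Cxcr2 and 4 in Cxcr1, against a median of 6 over all windows. These matches describe the letters only.

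The label of the sort was checked first. Itgax averaged 2083 ± 43.1 CPM (counts scaled to 1e6 per library after TMM factors) in wild type (SD, n = 4) and 3308 ± 252 in Suz12 cKO (SD, n = 3), and all 16 alveolar macrophage markers were detected in every library. Of these markers 8 rose (Itgax, Fabp4, Fabp1, Ear1, Ear2, Krt79, Marco and Mrc1) and Plet1 fell (log2 fold change -0.49, edgeR adjusted p = 0.00855). Siglecf, which encodes Siglec-F, was at 238 to 318 CPM in wild type and lower in every Suz12 cKO library, at 198 to 235 CPM, with a fitted difference of -0.39 on the log2 scale that missed the threshold (adjusted p = 0.0772). The number of markers called lower was 2 without wild type replicate 4, where 411 of 14296 genes were over the whole table. Suz12 averaged 63.9 ± 8.92 CPM in wild type and 20.3 ± 4.53 CPM in Suz12 cKO (log2 fold change -1.65, SE 0.18, edgeR adjusted p = 0.00134), and the ranges did not overlap. Libraries held between 48104653 and 79281431 counts. The sum of 4 haemoglobin genes reached 57.9 to 194 CPM in 3 libraries, wild type replicate 2 and Suz12 cKO replicates 1 and 2. In the remaining libraries it was 2.27 to 5.23 CPM. Those 3 libraries are called high in haemoglobin below, a division made with the data known, and the results on the 5 genes are given for both kinds of library apart. Of all genes tested, 10.3% were called at an edgeR adjusted p under 0.05, 6.28% as higher and 4.02% as lower in Suz12 cKO. An unadjusted edgeR p under 0.05 for genotype was found in 3531 of 14436 genes, far more than 0.05 of them.

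Of the 5 genes, S100a8, Cxcr2 and Csf3r were higher in every Suz12 cKO library than in every wild type library and rose by the edgeR test, while S100a9 was not called. Retnlg was also called, but it passed the filter on low counts only through the Suz12 cKO libraries, so its call and its separate ranges carry no weight of their own. The fitted fold was 3.88 for S100a8, 3.42 for Cxcr2 and 1.52 for Csf3r, and Retnlg had at most 2 counts in a wild type library and 16 to 127 in Suz12 cKO. S100a9 had counts in the 3 libraries high in haemoglobin, of both genotypes, and none in the other 4. Ranges that do not overlap were found in 25.5% of all genes tested, in 14.1% with the Suz12 cKO libraries on top, and the median log2 fold change over all genes was 0.00.

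**Figure D1:**
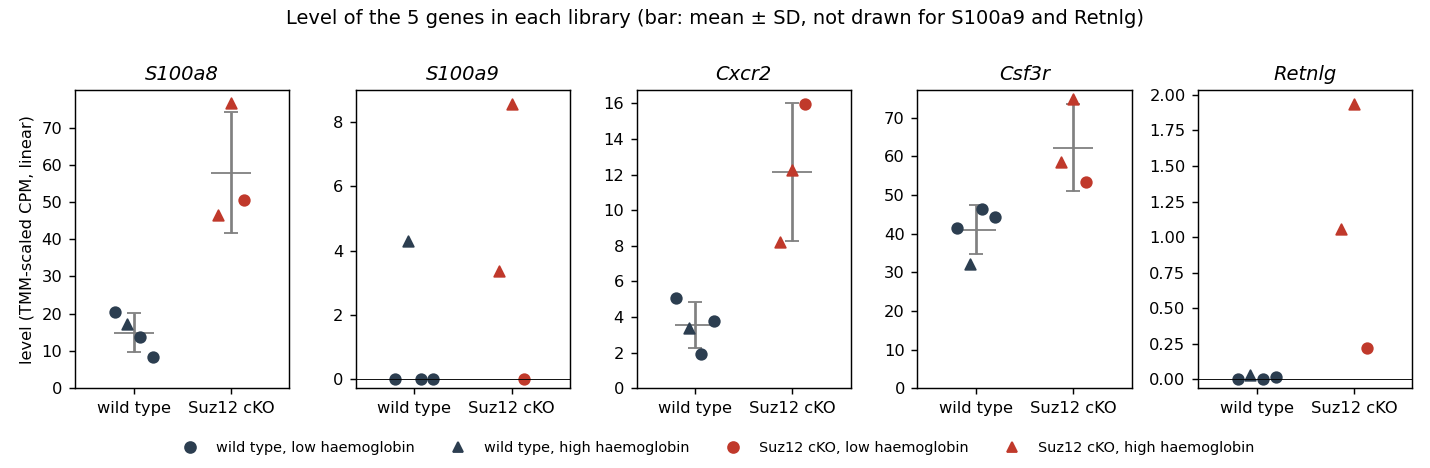
Level of the 5 genes in each library, in TMM-scaled CPM on linear axes that differ between panels, with wild type in dark blue and Suz12 cKO in red, triangles for the 3 libraries high in haemoglobin and circles for the other 4, and a bar for the mean ± SD, not drawn for S100a9 and Retnlg. The 3 Suz12 cKO libraries lie above all wild type libraries for S100a8, Cxcr2, Csf3r and Retnlg, whereas S100a9 is at 0 in every circle.

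S100a8 had levels of 20.3, 17.4, 13.6 and 8.33 CPM in wild type replicates 1 to 4, from 1634, 1058, 800 and 404 counts. In Suz12 cKO replicates 1 to 3 it stood at 46.6, 76.6 and 50.6 CPM, from 2954, 5028 and 3614 counts. The lowest Suz12 cKO library was thus more than double the highest wild type library. The means were 14.9 ± 5.18 CPM (SD, n = 4) and 57.9 ± 16.3 CPM (SD, n = 3), and S100a8 rose by 1.96 on the log2 scale (SE 0.29, edgeR adjusted p = 0.00447). Per kilobase of transcript S100a8 was the most abundant of the 5 genes in each library, above 75.5% to 89.4% of tested genes in wild type and above 96.2% to 97.8% in Suz12 cKO. It was called without each of the 7 libraries in turn, with adjusted p between 0.00351 and 0.0240.

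The fitted increase in S100a8 was 1.84 and 1.83 on the log2 scale in the 2 kinds of library. Within the 4 libraries low in haemoglobin, Suz12 cKO replicate 3 at 50.6 CPM compared with 8.33 to 20.3 CPM in wild type (SE 0.40, edgeR adjusted p = 0.0278). Within the 3 high ones, 46.6 and 76.6 CPM compared with 17.4 CPM (SE 0.50, adjusted p = 0.103). Each of these fits rests on a lone library of 1 genotype that is assumed to vary like the others. The difference between the 2 effects was -0.01 on the log2 scale (SE 0.63, edgeR adjusted p = 0.99988). Of all genes, 9.56% were called within the 4 low libraries, 6.48% as higher in Suz12 cKO, and 2.38% within the 3 high ones.

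S100a9, the partner of S100a8 in calprotectin, had 0 counts in wild type replicates 1, 3 and 4 and in Suz12 cKO replicate 3. It had 263 counts (4.32 CPM) in wild type replicate 2, 213 counts (3.36 CPM) in Suz12 cKO replicate 1 and 562 counts (8.56 CPM) in Suz12 cKO replicate 2. A count of 0 allows up to 3 counts, which is 0.0373 to 0.0619 CPM in these 4 libraries, counting error only. Pooled over libraries, S100a9 was at least 472-fold higher in the 3 libraries high in haemoglobin than in the other 4, against a floor of 3 counts over those 4. Between genotypes the log2 fold change was 1.88 with an SE of 2.20 (edgeR adjusted p = 0.677), and the ranges overlapped. S100a9 passed the filter on low counts only through the 3 libraries high in haemoglobin, a division made with the data known. The fold between the 2 kinds of library therefore carries no weight of its own. The surfactant protein gene Sftpc, made by epithelial cells, reached 4.53 to 10.6 CPM in those libraries and at most 0.0412 CPM in the others, and the part of other cells' RNA in the S100a9 level was not tested.

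The pair therefore had very unequal transcript levels. Per kilobase, S100a8 exceeded S100a9 by 5.01 times in wild type replicate 2, 17.3 times in Suz12 cKO replicate 1 and 11.1 times in Suz12 cKO replicate 2. Where S100a9 had no count, S100a8 exceeded it by at least 168, 332 and 678 times in wild type replicates 4, 3 and 1, and by at least 1500 times in Suz12 cKO replicate 3, against a floor of 3 counts per library. S100a9 made up 5.47% to 16.6% of the summed level of the pair, per kilobase, in the libraries that contained it. With 0.5 added to both counts, the log2 ratio differed between genotypes by -1.91 (exact permutation test over 35 splits, two-sided, p = 0.629, n = 4 and 3). The 4 libraries with no S100a9 count had log2 ratios of 9.98 to 13.1, and the 3 with counts 2.32 to 4.11. The -1.91 therefore depends on how the libraries with no count fall between the genotypes and on the added 0.5. It is no result on the ratio. Within the 3 high libraries, the ones with S100a9 counts, the difference was 1.47, the opposite sign. Within the 4 low ones it was 2.16, but S100a9 had no count there. That value reflects S100a8 counts and the added 0.5 alone and is no result on the ratio.

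Of 16 other listed S100 family members and partners, 10 were tested and 0 rose. S100a10 alone was called, which fell from 436 ± 38.9 CPM to 302 ± 39.4 CPM (SD, n = 4 and 3; log2 fold change -0.53, edgeR adjusted p = 0.0222). S100a10, which encodes the annexin A2 partner p11, and S100a6 had the highest levels of the list, with S100a6 at 259 ± 48.1 and 207 ± 31.9 CPM (adjusted p = 0.257). The S100a10 call was lost without wild type replicate 1 or 3 or Suz12 cKO replicate 1 or 2, and the median log2 fold change of the list was -0.28. S100a6 and S100a4 are the nearest tested genes before S100a8 on chromosome 3, at 54.7 and 63.0 kb, with fitted differences of -0.33 and -0.48 on the log2 scale (adjusted p = 0.257 and 0.222). The next tested gene after S100a9, the trichohyalin gene Tchh, lies 2746.6 kb away and rose by 1.44 on the log2 scale (adjusted p = 0.00394).

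Among 11 receptors and partners of calprotectin, all tested, 1 rose and 1 fell. Cd36, a scavenger receptor that also takes up calprotectin-bound fatty acids, averaged 357 ± 145 CPM in wild type and 876 ± 103 in Suz12 cKO (log2 fold change 1.29, edgeR adjusted p = 0.0222). The sialic acid receptor gene Cd33 averaged 131 ± 4.49 and 94.7 ± 16.6 CPM (log2 fold change -0.47, adjusted p = 0.0401). Tlr4, the Toll-like receptor gene for which calprotectin is a ligand, was at 207 to 221 CPM in Suz12 cKO and at 210 to 264 CPM in wild type (adjusted p = 0.476). The transglutaminase gene Tgm2, at 739 ± 451 and 797 ± 206 CPM, had the highest mean of the list over the 7 libraries, below Cd36 in the Suz12 cKO mean, and was not called (adjusted p = 0.914). The median log2 fold change of the list was -0.04. The Cd36 call was lost without wild type replicate 3 or any 1 of the Suz12 cKO libraries, and the Cd33 call without wild type replicate 1, 3 or 4 or Suz12 cKO replicate 1 or 2. With wild type replicate 2 left out the number called higher was 3, where 1515 of 14117 genes were over the whole table.

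Cxcr2 had levels of 5.08, 3.38, 1.92 and 3.79 CPM in wild type replicates 1 to 4, from 113 to 408 counts. In Suz12 cKO replicates 1 to 3 it stood at 8.21, 12.2 and 15.98 CPM, from 520, 804 and 1142 counts. The highest level was in Suz12 cKO replicate 3, which is low in haemoglobin. The means were 3.54 ± 1.30 CPM (SD, n = 4) and 12.1 ± 3.89 CPM (SD, n = 3), and Cxcr2 rose by 1.77 on the log2 scale (SE 0.35, edgeR adjusted p = 0.0151). Within the 4 libraries low in haemoglobin the log2 fold change was 2.15 (SE 0.47, adjusted p = 0.0279), and within the 3 high ones 1.60 (SE 0.59, adjusted p = 0.206). The call was lost when Suz12 cKO replicate 2 or 3 was left out (adjusted p = 0.0575 and 0.0583), with log2 fold changes of 1.77 and 1.51.

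Cxcr1, the paralogue beside Cxcr2, had no such difference. Its levels were 24.7, 13.6, 16.03 and 19.7 CPM in wild type replicates 1 to 4 and at 14.5, 15.2 and 21.9 CPM in Suz12 cKO (log2 fold change -0.10, SE 0.24, edgeR adjusted p = 0.855), and its sign turned to 0.12 and 0.13 within the 4 low and 3 high libraries. The ratio of Cxcr2 to Cxcr1 per kilobase was 0.0761, 0.0920, 0.0444 and 0.0713 in wild type replicates 1 to 4 and 0.209, 0.297 and 0.270 in Suz12 cKO. Cxcr1 therefore remained the more abundant transcript in each library, and the ratio ranges did not overlap. The log2 ratio was higher by 1.90 in Suz12 cKO (exact permutation test, two-sided, p = 0.0286, n = 4 and 3), the smallest p that 35 splits can give, in a comparison chosen after the values had been seen. On the other side of Cxcr2, Rufy4 at 5.8 kb had a log2 fold change of 0.01 (adjusted p = 0.972) and the focal adhesion gene Tns1 at 29.4 kb rose by 0.61 (adjusted p = 0.00784).

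Of 7 listed ligands of CXCR2, 6 were tested and 0 were called by edgeR or by DESeq2, with 1 at an unadjusted edgeR p under 0.05. All 6 had a fitted log2 fold change above 0, with a median of 1.88, and the library ranges of each overlapped. Cxcl2, the most abundant, stood at 758, 928 and 967 CPM in the 3 libraries high in haemoglobin, at 43.0 CPM in Suz12 cKO replicate 3 and at 7.18 to 7.97 CPM in the other wild type libraries. Cxcl1 followed the same order of libraries, at 88.1, 118 and 148 CPM in the high ones, 4.98 CPM in Suz12 cKO replicate 3 and 0.0249 to 0.307 CPM in the rest. In both genes wild type replicate 2 lay far from the other wild type libraries. Without that library 3 ligand genes were called higher, where 1515 of 14117 genes were over the whole table. Of 17 tested chemokine receptors and signalling regulators, the beta-arrestin gene Arrb1 and the receptor kinase gene Grk5 rose, by 0.54 and 0.65 on the log2 scale (adjusted p = 0.0257 and 0.0496), and 0 fell. The Arrb1 call was lost without wild type replicate 1 or 3 or any 1 of the Suz12 cKO libraries, and the Grk5 call without wild type replicate 1, 3 or 4 or Suz12 cKO replicate 1 or 2. Gnai2, the inhibitory G protein gene that couples these receptors, averaged 949 ± 49.1 and 804 ± 59.9 CPM (adjusted p = 0.102), and the kinase gene Grk2 319 ± 26.8 and 273 ± 2.23 CPM (adjusted p = 0.162).

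Csf3r (chromosome 4, 126023441 to 126044975, plus strand) had levels of 41.5, 32.1, 46.4 and 44.2 CPM in wild type replicates 1 to 4. In Suz12 cKO replicates 1 to 3 it stood at 58.6, 75.0 and 53.4 CPM. The gap between the genotypes was narrow, from 46.4 to 53.4 CPM. The means were 41.1 ± 6.27 CPM (SD, n = 4) and 62.3 ± 11.3 CPM (SD, n = 3), and Csf3r rose by 0.60 on the log2 scale (SE 0.16, edgeR adjusted p = 0.0438). The call was lost without wild type replicate 1, 3 or 4 or any 1 of the Suz12 cKO libraries (adjusted p between 0.0552 and 0.165) and with a term for haemoglobin (adjusted p = 0.0521). A predicted RefSeq gene, Gm32908, overlaps Csf3r, and since no strand setting is given, reads of the pair could not be told apart.

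Csf3r was the gene of the 5 whose difference varied most between the haemoglobin classes relative to its error. Within the 3 high libraries 58.6 and 75.0 CPM compared with 32.1 CPM (log2 fold change 1.05, SE 0.19, edgeR adjusted p = 0.0306). Within the 4 low ones 53.4 CPM compared with 41.5 to 46.4 CPM (log2 fold change 0.28, SE 0.17, adjusted p = 0.332). Those 2 effects differed by 0.78 on the log2 scale (SE 0.25, edgeR adjusted p = 0.337), which did not pass the threshold. Of all genes tested 0.0831% did, and of the 5 genes 0 passed after adjustment by edgeR and 1 had an unadjusted p under 0.05.

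**Figure D2:**
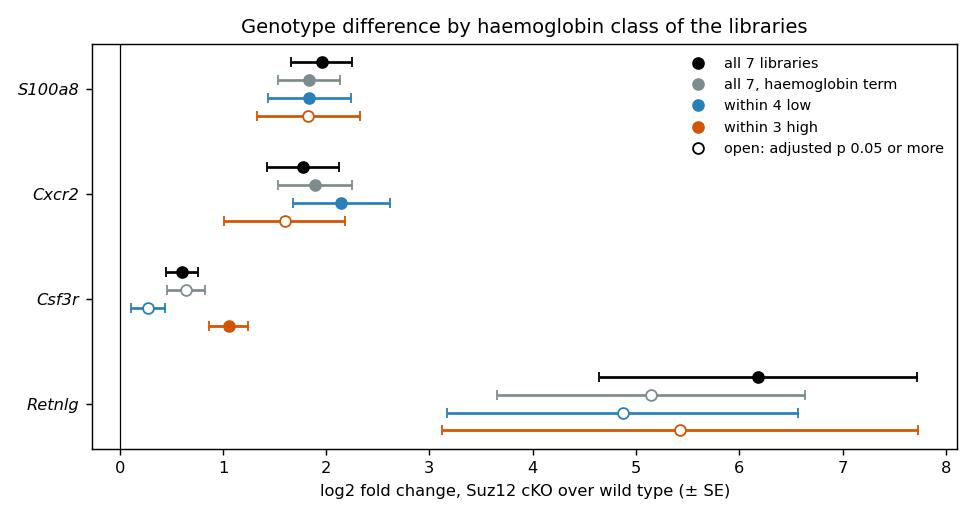
Log2 fold change of Suz12 cKO over wild type (x axis, ± SE) for S100a8, Cxcr2, Csf3r and Retnlg in all 7 libraries, with a term for haemoglobin, and within the 4 low and 3 high libraries, with filled points where the edgeR adjusted p was under 0.05. All points lie above 0, S100a8 stays between 1.83 and 1.96, and Csf3r spans 0.28 to 1.05.

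The ligand gene Csf3 had 5 counts in Suz12 cKO replicate 2 and none in the other libraries. Of 18 tested genes of CSF3R signalling, 1 rose, and the median log2 fold change was -0.01. Cish, a feedback inhibitor induced by STAT5, averaged 41.1 ± 20.7 CPM in wild type and 118 ± 43.1 in Suz12 cKO (log2 fold change 1.52, adjusted p = 0.0347), and its ranges overlapped. The Cish call was lost without wild type replicate 1, 3 or 4 or Suz12 cKO replicate 1 or 2. Cebpb and Cebpa, C/EBP factor genes of the myeloid lineage and the most abundant of the list, were not called (1846 ± 534 and 2143 ± 281 CPM, adjusted p = 0.585, and log2 fold change -0.34, adjusted p = 0.0889). Of 9 tested receptors of related cytokines 0 were called by edgeR, with 5 at an unadjusted p under 0.05 and 3 called higher by DESeq2. Over all genes, 3531 of 14436 had an unadjusted edgeR p under 0.05, and DESeq2 called 1457 of 18034 higher. The most abundant of them were Csf2rb (744 ± 47.1 and 800 ± 6.61 CPM, adjusted p = 0.463) and Csf2ra (678 ± 77.4 and 831 ± 31.9 CPM, adjusted p = 0.104), both subunits of the GM-CSF receptor. Mrps15, a mitochondrial ribosomal protein gene 2.0 kb past Csf3r, fell by 0.63 on the log2 scale (adjusted p = 0.0360).

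Retnlg (chromosome 16, 48872608 to 48874498, plus strand) was counted at very low levels. It had 0, 2, 0 and 1 counts in wild type replicates 1 to 4 and 67, 127 and 16 counts in Suz12 cKO replicates 1 to 3. The levels were 1.06, 1.93 and 0.224 CPM in Suz12 cKO and at most 0.0328 CPM in wild type. The lowest Suz12 cKO library, the one low in haemoglobin, lay below the other 2. Pooled by genotype, the ratio was 86.8 with an exact 95% interval of 29.3 to 424, which covers counting error only. The fitted log2 fold change of Retnlg was 6.18 (SE 1.54, edgeR adjusted p = 0.0376), which depends on how near-zero counts are treated, and it passed the filter on low counts only through the group in which it was high. The call was lost without wild type replicate 1, 3 or 4 or Suz12 cKO replicate 1 or 2 (adjusted p between 0.0682 and 0.158), with a haemoglobin term (0.0564) and within the 4 low or 3 high libraries (0.114 and 0.267).

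Of the resistin-like family, Retnla, the macrophage gene also known as Fizz1, lies 28.1 kb before Retnlg. It was at 32.9 CPM in wild type replicate 2 and at 37.4 and 52.8 CPM in Suz12 cKO replicates 1 and 2, at 4.52 CPM in Suz12 cKO replicate 3 and at 0.112 to 1.38 CPM in the remaining wild type libraries (edgeR adjusted p = 0.534). The 3 libraries high in haemoglobin thus held the highest levels. Retnlb had no count in any library. Cap1, which encodes a protein that resistin binds in humans, fell from 1131 ± 40.9 to 923 ± 59.6 CPM (log2 fold change -0.29, adjusted p = 0.0392), a call that held without wild type replicate 2 and was lost without each of the other 6 libraries. Cip2a, 119.7 kb past Retnlg, fell by 1.39 on the log2 scale (adjusted p = 0.0115), and Dzip3, between them, had a log2 fold change of -0.19 (adjusted p = 0.825).

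Of 8 defining neutrophil markers, Ly6g and the cathelicidin gene Camp had no count in any of the 7 libraries, which allows up to 0.0373 to 0.0619 CPM per library. Mpo, the myeloperoxidase gene, had 8 counts in Suz12 cKO replicate 2 alone, and Ngp 0.443 CPM in wild type replicate 2 alone. Elane, which encodes neutrophil elastase, was at 0.0747 CPM in wild type replicate 1, 0.426 in Suz12 cKO replicate 2 and 1.22 in Suz12 cKO replicate 3, and at 0 in the others. The lactoferrin gene Ltf averaged 1.67 ± 1.81 CPM in wild type and 0.291 ± 0.411 in Suz12 cKO (adjusted p = 0.357). Cd177, a surface glycoprotein gene of neutrophils, was the marker that rose, from 1.78 ± 1.05 to 9.32 ± 1.84 CPM (log2 fold change 2.39, edgeR adjusted p = 0.0112), a call lost without Suz12 cKO replicate 1 and within the 3 libraries high in haemoglobin. The summed level of the 8 markers was 18.3 to 26.2 CPM in wild type and 24.0 to 32.5 CPM in Suz12 cKO, most of it Cxcr1. The part of neutrophils in the levels of the 5 genes was not tested beyond these values.

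Among 13 tested genes of neutrophil granules and precursors, 2 were called higher and 1 lower, with a median log2 fold change of 0.65, also with Prtn3 at its bound. Prtn3, the proteinase 3 gene, had no wild type count and stood at 0.442, 0.670 and 1.02 CPM in Suz12 cKO, at least 59.9-fold higher against a floor of 3 counts over the wild type group, counting error only. It passed the filter on low counts only through Suz12 cKO, so its edgeR call (adjusted p = 0.0328), 1 of the 2, carries no weight of its own. Lrg1 rose from 27.6 ± 3.44 to 43.4 ± 7.35 CPM (adjusted p = 0.0245), and the protease inhibitor gene Serpinb1a fell from 209 ± 17.2 to 157 ± 13.8 CPM (adjusted p = 0.0380). Lyz2 and Cybb, abundant in macrophages as well as neutrophils, were the highest of the list, with fitted differences of -0.07 and -0.01 on the log2 scale (adjusted p = 0.810 and 0.983). The number called higher was 0 without wild type replicate 1 or 3 or Suz12 cKO replicate 2 or 3, and 1 when wild type replicate 4 or Suz12 cKO replicate 1 was left out. Over all genes those fits called 447 to 683 higher. The number called lower was 0 without wild type replicate 1, 3 or 4 or any 1 of the Suz12 cKO libraries, and 0 within either haemoglobin class.

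Among 19 tested surface and cytosol genes of mature neutrophils, 3 rose and 3 fell, with a median log2 fold change of 0.49. Itgam, which encodes CD11b, rose from 21.5 ± 15.5 to 98.8 ± 19.2 CPM (log2 fold change 2.20, edgeR adjusted p = 0.0151), and the antiprotease gene Slpi from 133 ± 6.10 to 187 ± 8.93 CPM (adjusted p = 0.00762), and Cd177 was the other gene to rise. The formyl peptide receptor genes fell, Fpr1 from 276 ± 52.5 to 153 ± 23.6 CPM (adjusted p = 0.0153) and Fpr2 from 237 ± 40.7 to 118 ± 22.9 CPM (adjusted p = 0.00805). Wfdc21, a small secreted protein gene, fell from 122 ± 5.85 to 43.9 ± 11.9 CPM (log2 fold change -1.48, adjusted p = 0.00195). Lilrb4a, the most abundant of the list, averaged 476 ± 114 and 626 ± 76.8 CPM (adjusted p = 0.206). The Itgam call was lost without wild type replicate 3 or Suz12 cKO replicate 2, and the Fpr1 call when Suz12 cKO replicate 2 or 3 was left out. With wild type replicate 2 left out the number called higher was 10. Over all genes that fit called 1515 of 14117 higher, against 906 of 14436 with all 7 libraries.

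**Figure D3:**
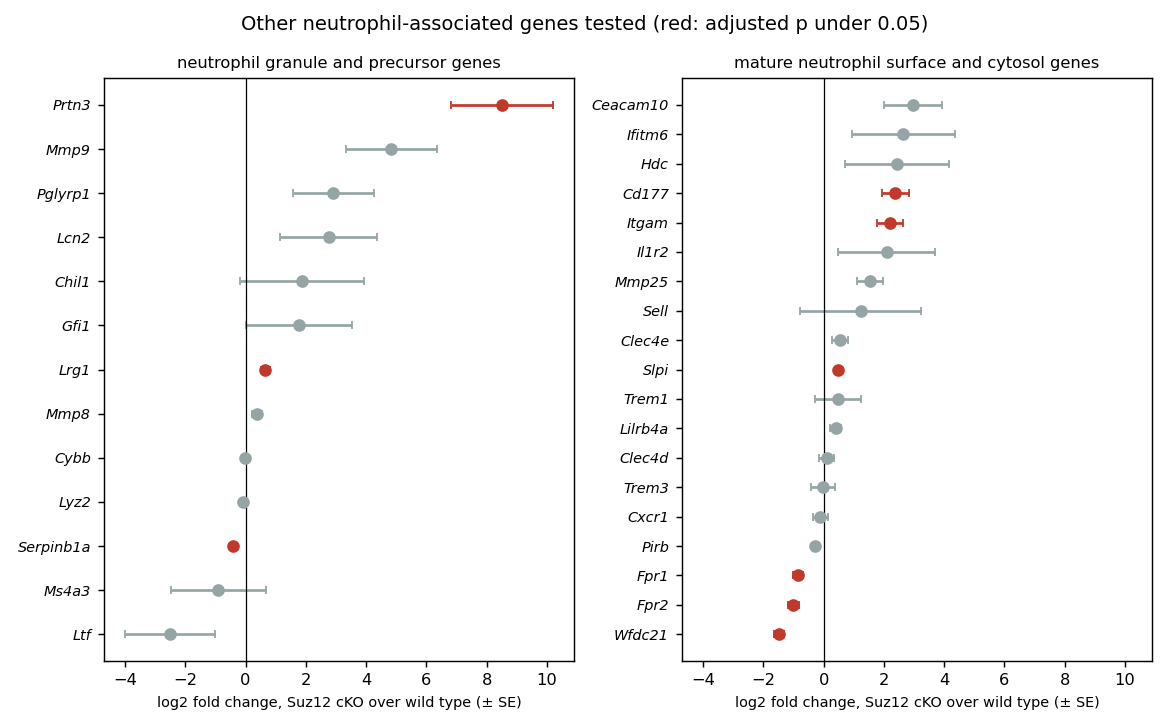
Log2 fold change of Suz12 cKO over wild type (x axis, ± SE) for the 13 tested granule and precursor genes (left) and the 19 tested surface and cytosol genes of neutrophils (right), in red where the edgeR adjusted p was under 0.05. Red points lie on both sides of 0, and the value of Prtn3, which had no wild type count, depends on how zero counts are treated.

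Markers of other cells gave these values. Of 13 monocyte markers 5 rose and 0 fell, the 4 with the smallest p being Vcan (2.52 ± 0.562 to 16.8 ± 3.34 CPM, edgeR adjusted p = 0.000567), Ace (adjusted p = 0.000844), F13a1 (1.65 ± 1.02 to 10.0 ± 0.876 CPM, adjusted p = 0.00697) and Cd177. The classical monocyte gene Ly6c2 was at 0 to 1.13 CPM, and the monocyte list held Chil3 and Cd177, which other lists share. The summed levels of 10 eosinophil, basophil and mast cell markers were 0.0560 to 0.548 CPM, and 6 of them, among them Epx and Prg2, had no count. Markers of T, B and NK cells summed to 3.38 to 10.8 CPM in the 3 libraries high in haemoglobin and to 0.557 to 1.16 CPM in the others. Of 9 alveolar epithelium genes Napsa alone rose (by 0.79 on the log2 scale, adjusted p = 0.00218), and the list summed to 178 to 219 CPM in the high libraries and 88.2 to 159 CPM in the others. Napsa, at 72.4 to 92.2 CPM in wild type and 138 to 144 CPM in Suz12 cKO, was the largest part of that sum in each library. Of 3 tested platelet and 5 tested endothelium genes 0 were called by edgeR, with 1 and 0 at an unadjusted p under 0.05 and 1 and 0 called by DESeq2. Without wild type replicate 2, 1 gene of each was called higher, where 1515 of 14117 genes were over the whole table. The part of these cells in the levels of the 5 genes was not tested.

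The 5 genes also differed in which other genes their profiles resembled. Likeness was measured as the root mean square difference of log2 CPM, centred on the gene's mean, over the 7 libraries and 12936 named genes. Nearest to S100a8 were Tc2n, Rgl3 and Ltbp3 (0.21, 0.23 and 0.23), all of them higher in Suz12 cKO. Nearest to Cxcr2 were Inka2, Nectin2 and Arap3 (0.13, 0.26 and 0.28), and nearest to Csf3r were C1rl, Epb41l1 and Mgll (0.10, 0.11 and 0.12). Retnlg was nearest to Hoxaas3, Dio2 and Cdr2l (0.49, 0.55 and 0.62), which had no count in wild type. S100a9 was nearest to Adgrf5, Sftpc and Tmem88 (0.48, 0.54 and 0.66). Those 3 genes stood at 2.44 to 10.6 CPM in the libraries high in haemoglobin and at 0 to 0.0412 CPM in the other 4. All nearest genes were picked for likeness in these same libraries. That they share the pattern of their gene follows from the choice and is no separate result. Between the 5 genes, S100a8 and Cxcr2 were closest (0.55) and S100a9 was between 2.64 and 3.56 from each of the others.

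**Figure D4:**
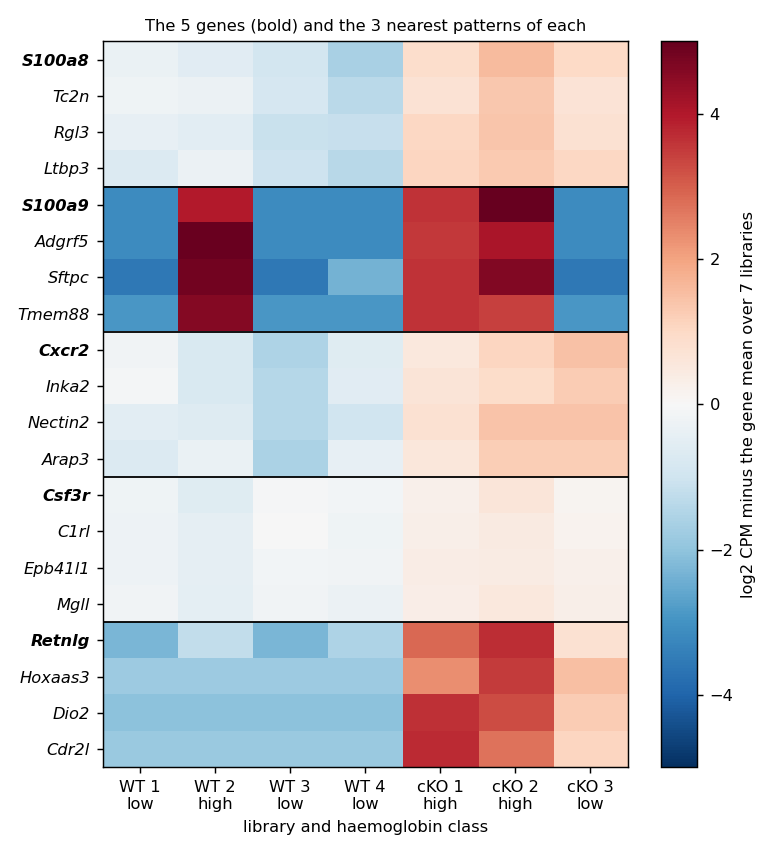
Log2 CPM (prior count 2) minus the gene mean over the 7 libraries, in colour, for the 5 genes (bold) and the 3 genes nearest to each, with libraries in columns and their haemoglobin class under them. S100a9 and its nearest genes are high in wild type 2 and Suz12 cKO 1 and 2, whereas the other 4 genes are above their mean in all 3 Suz12 cKO libraries. The nearest genes were picked for this likeness, so their shared pattern follows from the choice.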

How the data were processed

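The authors deposited raw read counts for each gene; featureCounts and mm10 are named in the submitters' processing notes. They also gave a length for each gene, per the file headers. Aligner, annotation, strand setting and the treatment of multi-mapped reads were not given in the sources used here. Reads were single-end, 85 bp, with 14 to 20 M reads stated per sample in the design text, fewer than the deposited totals below. Per-sample files and the series table had equal values for every gene.

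Genes were matched by Entrez number to RefSeq symbols and positions of GRCm38.p6, to which mm10 corresponds (25275 of 27179 matched). Genotypes were compared with edgeR 4.0.16 (R 4.3.3): filterByExpr (minimum count 10, minimum total 15), TMM factors, quasi-likelihood test with genotype as the term, two-sided, Benjamini-Hochberg over the 14436 tested genes, which held 99.98% of counts. Calls were made at adjusted p under 0.05. The SE is the log2 fold change divided by the square root of F. Total counts were 48104653 to 79281431 per library. Intervals and floors of 3 counts cover counting error only and take each count as an independent read. The design text states fewer reads than these totals, for which no reason is given. Intervals and floors may therefore be too narrow. Values in CPM per kilobase use the deposited lengths. The effects within haemoglobin classes come from 1 fit with a term for each of the 4 combinations of genotype and class. The S100a8 to S100a9 ratio was planned without an offset, which 4 libraries with no S100a9 count do not allow, so 0.5 was added to both counts. The fit was tested on simulated data.

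The 5 genes, the 18 other lists and the haemoglobin division were chosen with earlier results of these data known. Named were the 5 genes, Suz12, 8 defining neutrophil markers, the called genes of each list (at most 4 by p in each direction), the more abundant of its genes and the 3 nearest profiles; Siglecf, Krt79, Marco, Mrc1, Tlr4, Sftpc, Csf3, S100a4, Ly6c2, Retnlb, Epx, Prg2 and genome neighbours were named outside that rule, after their values were seen. Alternatives were DESeq2 1.42.0, RLE factors, library totals, other filters, each library left out, a replicate block, a haemoglobin term and each haemoglobin class. Replicates of a group correlated at 0.916 to 0.969 in log2 CPM, and no library was a copy of another. The result of 1 listed gene is not reported here.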

Additional observations from a re-analysis of the deposited data

Results flagged for a closer look

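In the 4 wild type libraries, 14 of 68 genes checked had a library set apart by Dixon's 95% critical value. The value compared was its gap to the nearest other library, as a share of the group's range in CPM. Chance gives this in about 1 in 20 groups of normally distributed values, a condition not checked here. In 13 of the 14 that library was wild type replicate 2, the wild type library high in haemoglobin. Flags that share a library are not independent of each other. Hba-a2 and Hbb-b1 are among the haemoglobin genes summed for that class, so their flags carry no weight of their own. S100a9, Ngp and Elane were at 0 in 3 libraries, so their share was 1 at any count. The chance rate does not apply to them. S100a9 was at 4.32 CPM there and at 0 in the other 3. Of the neutrophil genes, Ltf was at 4.37 CPM against 0.610 to 1.07, Ngp at 0.443 CPM against 0, and Itgam at 44.6 CPM against 11.9 to 16.3. The chemokine genes Cxcl2 and Cxcl1 were at 758 and 88.1 CPM, and Retnla at 32.9 CPM. Tgm2 was at 1409 CPM against 457 to 608, and the early response gene Nr4a1 at 1506 CPM against 62.5 to 113. The haemoglobin genes Hba-a2 and Hbb-b1 were at 20.7 and 17.3 CPM, the B cell gene Cd79a at 1.95 CPM and the endothelial gene Pecam1 at 3.61 CPM. The exception was Elane, at 0.0747 CPM in wild type replicate 1 and at 0 in the other wild type libraries. The part of other cells' RNA in these levels was not tested.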

How the results depend on the processing

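S100a8, Cxcr2 and Csf3r kept a log2 fold change above 0 in all 16 fitted alternatives, and passed the threshold in 15, 12 and 7 of them. Retnlg and S100a9 passed the filter on low counts through the libraries in which they were high, and are not counted here. Over the whole table the number called higher, lower and in all was 585, 278 and 863 with the replicate block and 188, 155 and 343 within the 3 libraries high in haemoglobin. DESeq2 called 1457 genes higher and 2321 in all. Leaving out 1 library gave 447 to 1515 higher, 268 to 885 lower and 715 to 2400 in all. Between genotypes, correlations of deviations were -0.0411, 0.242 and 0.158 for samples of the same replicate number. For different numbers they were -0.256 to 0.117. These values do not settle whether replicate numbers pair the samples. With the replicate block the log2 fold changes of Cxcr2, Csf3r and Retnlg were 1.86, 0.64 and 6.84, no longer past the threshold (edgeR adjusted p = 0.0764, 0.129 and 0.111), and S100a8 was still called. The calls were also lost with the haemoglobin term for Csf3r and Retnlg (0.64 and 5.15), within the 4 low libraries for Csf3r and Retnlg (0.28 and 4.87), and within the 3 high ones for S100a8, Cxcr2 and Retnlg (1.83, 1.60 and 5.43). Without 1 library the ranges were 1.70 to 2.14 for S100a8, 1.51 to 2.002 for Cxcr2, 0.45 to 0.69 for Csf3r, 5.43 to 7.10 for Retnlg and 0.64 to 2.45 for S100a9. The cause of these losses was not tested. Fits without a library hold fewer samples, and each class effect, from the fit of all 7 libraries, compares 3 or 4 of them. S100a9 gave no value without wild type replicate 2 or within the 4 low libraries, and Retnlg none with at least 1 CPM in 3 libraries. The S100a8 to S100a9 difference was -1.91 in all 7 libraries and -5.02 to -0.19 without 1 library. These values depend on which libraries had no S100a9 count and on the added 0.5, and are no result on the ratio. Within the 3 high libraries the difference was 1.47, the opposite sign. The 2.16 within the 4 low ones, where S100a9 had no count, reflects S100a8 alone. With the block the difference was -1.52, and with a floor of 3 counts, chosen after seeing the data, -0.83. Both also depend on the libraries with no S100a9 count. Cxcr1, not called in any alternative named here, ran from -0.33 to 0.067 without 1 library (above 0 without wild type replicate 1) and turned to 0.13 with the haemoglobin term, and 0.13 and 0.12 within the 3 high and 4 low libraries. Of 478 values of 30 other named genes under the alternatives, 474 kept their sign, and the 4 that turned were of Cxcr1. Apart from Cxcr1 and Ltf, these genes were taken because they were called in the same 7 libraries. Kept signs are therefore no independent check. Depth limits Retnlg, Mpo and Elane, which rest on few counts.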
